A study of Mus musculus with 6 samples.

Results

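Proline, serine and asparagine are amino acids that a cell can make for itself. The 9 genes described here are Aldh18a1 and Pycr1 of proline synthesis, Phgdh, Psat1 and Psph of serine synthesis, Shmt2 and Mthfd2 of the mitochondrial use of serine, Asns of asparagine synthesis, and Atf4, which encodes a transcription factor that acts on many such enzyme genes. They were found by symbol among the 16344 genes of the deposited table, and 9 of 9 had a value in each of the 6 tumours. Aldh18a1 was picked because its value tended to be higher in the AZD7507 tumours in an earlier look at the same comparison, so its difference is given as a description with no test. The others were set beside it for their place in the pathways, with earlier results of these data known.

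The 3 AZD7507 tumours came from animals given AZD7507, an inhibitor of CSF1R, the receptor through which CSF1 and IL-34 keep macrophages alive, and the 3 Vehicle tumours from animals given vehicle. In both groups the murine cell line 60577, a model of high-grade serous ovarian cancer, had been placed in the peritoneal cavity of syngeneic mice and left for 21 days, and both groups had received 3 weekly cycles of carboplatin before 84 days of daily gavage. Tumours were taken at humane endpoint, so that the day of collection may differ between animals, and all of them derive from a single cell line. The labels name no host strain, age or batch, and do not tie a tumour to an animal, so the p-values measure only the spread between these tumours. Values are log2 RPKM (read density scaled to gene length and library size, normalized by the authors with cqn), on which 0 stands for 1 RPKM and a step of 1 for a doubling, and means are given ± SD with n = 3 in each group. The read depth behind each value is unknown.

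Cells make proline from glutamate through P5C synthase, the product of Aldh18a1, and the mitochondrial P5C reductase PYCR1. Serine is made from a glycolytic intermediate by PHGDH, PSAT1 and PSPH in turn, and SHMT2 and MTHFD2 then pass its carbon into the mitochondrial folate cycle, which feeds nucleotide synthesis. When amino acids run short or the endoplasmic reticulum is stressed, kinases phosphorylate the initiation factor eIF2, and the ATF4 messenger is then translated more. ATF4 protein is regulated largely at translation, so the level of its messenger is not a measure of its activity. In carcinomas these enzymes are often high, and the acinar cells of the pancreas, which make large amounts of digestive enzymes, are known for high asparagine synthetase.

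The promoters of the 9 genes were read from RefSeq sequences on GRCm38.p6, 250 bases before to 50 after each start, and 9 of 9 genes matched, with 10 promoters since Psat1 has a pair of starts. A core of the C/EBP-ATF response element, to which ATF4 binds with C/EBP proteins, was searched as TGATGNAA on both strands. It was present once each in the promoters of Asns (TGATGAAA, ending 16 bases before the start) and Pycr1 (TGATGCAA, ending 96 bases before it), and in no other promoter of the 9 genes, while 3.97% of the 32851 mouse promoters of this length held it. An E-box, CACGTG, which reads the same on both strands and overlaps no match of the other motif, was added after the sequences had been seen. It was present in the promoter of Aldh18a1, ending 54 bases before the start, and in 7.15% of all promoters. The promoters with a response element match, Pycr1 (chr11:120643699-120643998) and Asns (chr6:7693160-7693459), are shown with those of Aldh18a1 (chr19:40588414-40588713) and Psph (chr5:129787204-129787503), the 2 genes with the widest gap between the groups. All of them lie on the minus strand and are written 5′ to 3′ in the direction of the gene, with the motif matches in capitals.
Aldh18a1: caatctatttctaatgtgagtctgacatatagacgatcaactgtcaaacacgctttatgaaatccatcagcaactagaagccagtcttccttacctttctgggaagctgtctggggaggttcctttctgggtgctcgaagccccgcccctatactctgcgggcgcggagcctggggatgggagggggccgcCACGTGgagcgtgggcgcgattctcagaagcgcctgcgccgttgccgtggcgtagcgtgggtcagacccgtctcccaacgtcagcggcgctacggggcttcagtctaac
Pycr1: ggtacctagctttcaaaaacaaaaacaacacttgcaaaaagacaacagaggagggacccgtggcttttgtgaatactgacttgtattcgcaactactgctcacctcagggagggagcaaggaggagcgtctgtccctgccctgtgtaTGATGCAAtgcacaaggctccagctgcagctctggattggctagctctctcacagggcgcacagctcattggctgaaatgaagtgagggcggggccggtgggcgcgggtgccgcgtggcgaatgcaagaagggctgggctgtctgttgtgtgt
Psph: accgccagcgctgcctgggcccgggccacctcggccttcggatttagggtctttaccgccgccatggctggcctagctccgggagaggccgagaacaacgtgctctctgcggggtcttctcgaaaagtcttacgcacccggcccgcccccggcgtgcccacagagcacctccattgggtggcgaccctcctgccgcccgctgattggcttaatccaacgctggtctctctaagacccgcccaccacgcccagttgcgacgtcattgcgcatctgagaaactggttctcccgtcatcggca
Asns: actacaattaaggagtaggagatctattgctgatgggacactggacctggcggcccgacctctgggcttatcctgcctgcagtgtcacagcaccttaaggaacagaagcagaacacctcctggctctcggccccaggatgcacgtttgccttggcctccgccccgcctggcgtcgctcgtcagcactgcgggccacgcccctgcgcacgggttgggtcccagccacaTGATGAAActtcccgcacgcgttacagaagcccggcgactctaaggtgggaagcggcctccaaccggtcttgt
A match says only that these letters stand in the window, and no match says nothing of the factor.

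Pancreatic acinar transcripts set apart AZD7507 2 and Vehicle 2. The 12 measured acinar markers of 23 listed, among them the trypsin gene Prss2 and the chymotrypsin gene Ctrb1, had a mean log2 level of 8.74 in AZD7507 2 and 8.53 in Vehicle 2, against -1.80 to -0.31 in the other AZD7507 tumours and -2.95 to -0.73 in the other Vehicle tumours. Their share of all RPKM added together was 3.23% in AZD7507 2 and 2.92% in Vehicle 2, and at most 0.00655% elsewhere. The 14 macrophage markers averaged 2.14 ± 0.52 in AZD7507 tumours and 4.01 ± 0.49 in Vehicle tumours, with Csf1r at 2.35 ± 0.56 and 4.97 ± 0.45. The 11 measured epithelial and ovarian markers averaged 4.47 ± 0.08 in AZD7507 tumours and 4.15 ± 0.18 in Vehicle tumours. Their differences were above 0 for 11 of 11, where 54.5% of all genes were, and ran from 0.01 to 1.19 with a median of 0.26. At a limma adjusted p under 0.05, 0 of them passed. Before adjustment 2 were higher, beside 3.31% of all genes. Of the markers of the labelled tumour type, Wt1 was at 6.52 ± 0.18 in AZD7507 and 6.41 ± 0.26 in Vehicle tumours, whereas Pax8 lay near the bottom of the table at -3.11 ± 0.64 and -3.20 ± 0.97. The 9 fibroblast markers averaged 4.62 ± 0.07 in AZD7507 and 4.71 ± 0.27 in Vehicle tumours, and the 10 proliferation markers 4.36 ± 0.20 and 4.22 ± 0.09. In bulk tumours, fewer cells of a type and less RNA per cell cannot be told apart.

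Of the 8 genes other than Aldh18a1, 2 were higher in all AZD7507 tumours than in any Vehicle tumour, namely Psat1 and Psph. Across the transcriptome 7.34% of genes were higher and 8.02% lower without overlap. None of the 8 genes that could be tested passed at a Benjamini-Hochberg adjusted p under 0.05 in the limma fit over all genes, in which 0.0184% of genes were called higher and 0.337% lower. At an unadjusted p under 0.05, 3 of the 8 were higher and 0 lower (Psph, Psat1 and Pycr1), where 3.31% of all genes were higher and 5.49% lower. That count was 1 without Vehicle 1 and 5 without Vehicle 2, and 2 when any other tumour was left out. The difference was above 0 for 8 of the 8 genes, with a median of 0.485, while over all genes 54.5% lay above 0 and the median was 0.025. Shmt2, at 0.00, is among the 8, and 6 of them were above 0 without Vehicle 1. The 8 genes were chosen with earlier results of these data known, so these counts are a description.

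**Figure D1:**
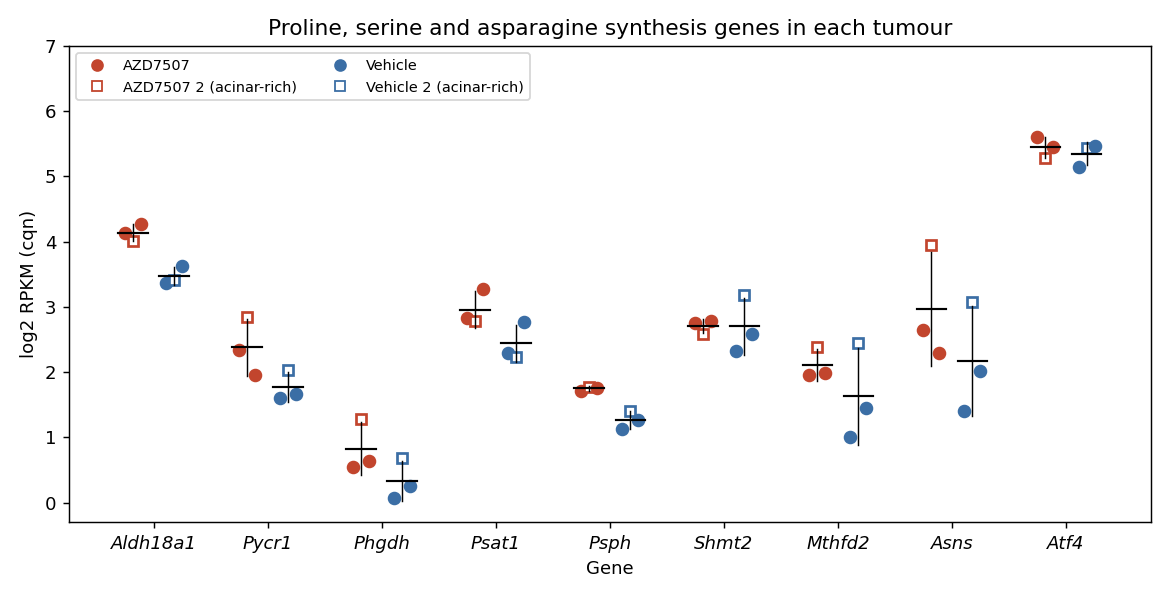
Level of each gene (log2 RPKM, vertical axis) in each tumour, AZD7507 left of Vehicle for each gene on the horizontal axis; bars give the mean and ± SD of 3 tumours, and open squares are AZD7507 2 and Vehicle 2, which hold pancreatic acinar transcripts. Psat1, Psph and Aldh18a1, which was chosen by its difference, do not overlap between the groups. The open squares are the highest points of each group for Asns, Mthfd2, Phgdh, Psph and Pycr1.

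Aldh18a1 (ENSMUSG00000025007, GRCm38 chromosome 19, 40550257 to 40588463, minus strand) encodes the enzyme that commits glutamate to proline and, through ornithine, to arginine. Its log2 level was 4.14, 4.01 and 4.27 in AZD7507 tumours 1 to 3, against 3.37, 3.41 and 3.63 in Vehicle tumours 1 to 3. All AZD7507 tumours were above all Vehicle tumours, with a gap of 0.38 between the nearest of them, and the values within each group lay close together. As RPKM these were 17.7, 16.1 and 19.3, against 10.3, 10.6 and 12.4. The means were 4.14 ± 0.13 and 3.47 ± 0.14, a difference of 0.68, or 1.60-fold. This difference chose the gene, so no p is attached to it. It was 0.60 between AZD7507 2 and Vehicle 2 and 0.71 between the means of the other tumours. A pseudogene, Gm15801, lies within the gene and shares 0 exon bases with it.

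Pycr1 (ENSMUSG00000025140, chromosome 11, 120635712 to 120643769, minus strand), which encodes the reductase that completes proline synthesis, was at 2.34, 2.84 and 1.95 in AZD7507 tumours, against 1.61, 2.04 and 1.67 in Vehicle tumours. AZD7507 3 lay below Vehicle 2, so the groups overlapped, and AZD7507 2 and Vehicle 2 were the highest of their groups. The difference was 0.60 (SE 0.24, 95% interval 0.04 to 1.17), with an unadjusted p of 0.038 and an adjusted p of 0.53 from limma, and was 0.374 without AZD7507 2. Within a tumour, Aldh18a1 stood above Pycr1 by 1.77 ± 0.57 in AZD7507 and 1.70 ± 0.30 in Vehicle tumours.

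Other genes around proline showed no common direction. Of 12 listed genes 11 were measured, of which 6 had a difference above 0 and 5 below, with a median of 0.08. The share above 0 was 54.5% over all genes. In this list 0 passed in either direction, also at an unadjusted p under 0.05. Oat, which links ornithine to proline, was at 4.39 ± 0.12 in AZD7507 and 4.31 ± 0.28 in Vehicle tumours. Prodh, which starts proline breakdown, was low in both groups, at -0.21 ± 0.49 and 0.08 ± 0.27. The list's smallest p-values belonged to P4ha2, a collagen prolyl hydroxylase subunit gene (difference 0.40, 95% interval -0.09 to 0.89), and Glud1, the glutamate dehydrogenase gene (difference -0.22, 95% interval -0.51 to 0.07). The difference of P4ha2 was 0.234 without AZD7507 3 and 0.235 without Vehicle 1, and that of Glud1 was -0.113 without Vehicle 2.

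The serine enzymes were each higher on average in AZD7507 tumours, without passing. Phgdh (ENSMUSG00000053398, chromosome 3, 98313170 to 98339990, minus strand), which opens the pathway, was the lowest of the 9 genes in each tumour. It was at 0.55, 1.28 and 0.64 in AZD7507 tumours, against 0.07, 0.68 and 0.26 in Vehicle tumours. AZD7507 2 was the highest tumour, and Vehicle 2 lay above the other AZD7507 tumours, so the groups overlapped. The difference was 0.49 (SE 0.27, 95% interval -0.14 to 1.13, limma adjusted p 0.68), and 0.262 without AZD7507 2. The annotation also holds a processed pseudogene, Phgdh-ps1, which could share reads.

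Psat1 (ENSMUSG00000024640, chromosome 19, 15904678 to 15947337, minus strand), the aminotransferase gene of the next step, was at 2.83, 2.78 and 3.28 in AZD7507 tumours, against 2.30, 2.24 and 2.77 in Vehicle tumours. The groups touched, since the lowest AZD7507 value of 2.78 was next to the highest Vehicle value of 2.77. The difference was 0.52 (SE 0.20, 95% interval 0.06 to 0.98), with an unadjusted p of 0.031 and an adjusted p of 0.50 from limma. Unlike Phgdh, it was lowest of its group in both AZD7507 2 and Vehicle 2, though close to AZD7507 1 and Vehicle 1. Against the mean of the other tumours, Phgdh was above by 0.69 and 0.51 there, and Psat1 below by 0.28 and 0.30. Psat1 stood above Phgdh by 1.49 in AZD7507 2 and 1.56 in Vehicle 2. In the other tumours it did so by 2.28 and 2.64 (AZD7507) and by 2.23 and 2.51 (Vehicle).

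Psph (ENSMUSG00000029446, chromosome 5, 129765558 to 129787449, minus strand), the phosphatase gene of the last step, was at 1.71, 1.78 and 1.76 in AZD7507 tumours, against 1.13, 1.41 and 1.27 in Vehicle tumours. The AZD7507 tumours lay within a narrow range and 0.30 above the nearest Vehicle tumour. The difference was 0.48 (SE 0.14, 95% interval 0.15 to 0.81), or 1.39-fold, with the smallest p of the 8 tested genes, 0.010 before and 0.32 after adjustment over all genes by limma. Psph shares 452 of its 4329 exon bases with Cct6a, on the opposite strand, and since the strand setting was not given in the sources used here, reads of both genes may be mixed in its value.

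Downstream of serine the picture was mixed. Mthfd2 (ENSMUSG00000005667, chromosome 6, 83305691 to 83325908, minus strand), the mitochondrial folate enzyme gene, was at 1.96, 2.39 and 1.98 in AZD7507 tumours, against 1.0, 2.45 and 1.45 in Vehicle tumours. Vehicle 2 was the highest of all tumours and Vehicle 1 the lowest, so the Vehicle group spanned the AZD7507 group. The difference was 0.48 (SE 0.35, 95% interval -0.35 to 1.30, limma adjusted p 0.78). It was -0.06 between AZD7507 2 and Vehicle 2, and 0.75 between the means of the other tumours, and 0.162 when Vehicle 1 was left out.

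Shmt2 (ENSMUSG00000025403, chromosome 10, 127517123 to 127522444, minus strand), which encodes the mitochondrial enzyme that splits serine to glycine, was at 2.76, 2.58 and 2.78 in AZD7507 tumours, against 2.33, 3.19 and 2.59 in Vehicle tumours. The Vehicle tumours lay on both sides of the AZD7507 tumours, with Vehicle 2 highest and Vehicle 1 lowest. The means were 2.71 ± 0.11 and 2.70 ± 0.44, a difference of 0.00 (SE 0.22, 95% interval -0.50 to 0.51). Without both AZD7507 2 and Vehicle 2 the difference was 0.31 (limma adjusted p 0.32). It shares 32 of 3109 exon bases with Ndufa4l2 on the opposite strand.

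Other folate and glycine genes were mostly near 0, with 14 of 16 measured, 11 differences above 0 and 3 below, and a median of 0.08. Over all genes, 54.5% of differences were above 0. None of the folate and glycine genes passed in the limma fit, and at an unadjusted p under 0.05 there were 0 higher and 0 lower. Mtr, the methionine synthase gene, was at 2.39 ± 0.22 in AZD7507 and 2.72 ± 0.25 in Vehicle tumours, a difference of -0.33 (95% interval -0.73 to 0.07, limma adjusted p 0.65), or -0.204 without AZD7507 2. The cytosolic counterparts Shmt1 and Mthfd1 differed by 0.05 and 0.07, and the mitochondrial Mthfd1l and Mthfd2l by 0.25 and 0.08. The difference of Mthfd1l was 0.142 without AZD7507 3, 0.043 without Vehicle 1 and 0.482 without Vehicle 2. Aldh1l2, a mitochondrial formyl-folate dehydrogenase gene, was at 1.16, 2.78 and 1.35 in AZD7507 tumours, against -0.16, 1.07 and 0.95 in Vehicle tumours. Its groups did not overlap, and AZD7507 2 and Vehicle 2 were again the highest of their groups. The difference of 1.14 (95% interval -0.02 to 2.31) did not pass (limma adjusted p 0.57), and was 0.633 without AZD7507 2 and 0.749 without Vehicle 1.

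Asns (ENSMUSG00000029752, chromosome 6, 7675169 to 7693254, minus strand), which encodes asparagine synthetase, varied most between tumours. Its log2 level was 2.65, 3.95 and 2.30 in AZD7507 tumours, against 1.41, 3.07 and 2.02 in Vehicle tumours. AZD7507 2 and Vehicle 2 were the highest tumours of all, above the other tumours of their group by 1.47 and 1.35. As RPKM they reached 15.4 and 8.38, against 4.91 and 6.29 in the other AZD7507 tumours and 2.66 and 4.06 in the other Vehicle tumours. The difference of 0.80 was the highest of the 9 genes, but its SE was 0.52 and its 95% interval ran from -0.43 to 2.03 (limma adjusted p 0.75). It was similar within both kinds of tumour, at 0.88 between AZD7507 2 and Vehicle 2 and 0.76 between the means of the others. Leaving out 1 tumour moved it to 0.308 without AZD7507 2, 0.421 without Vehicle 1 and 1.249 without Vehicle 2.

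**Figure D2:**
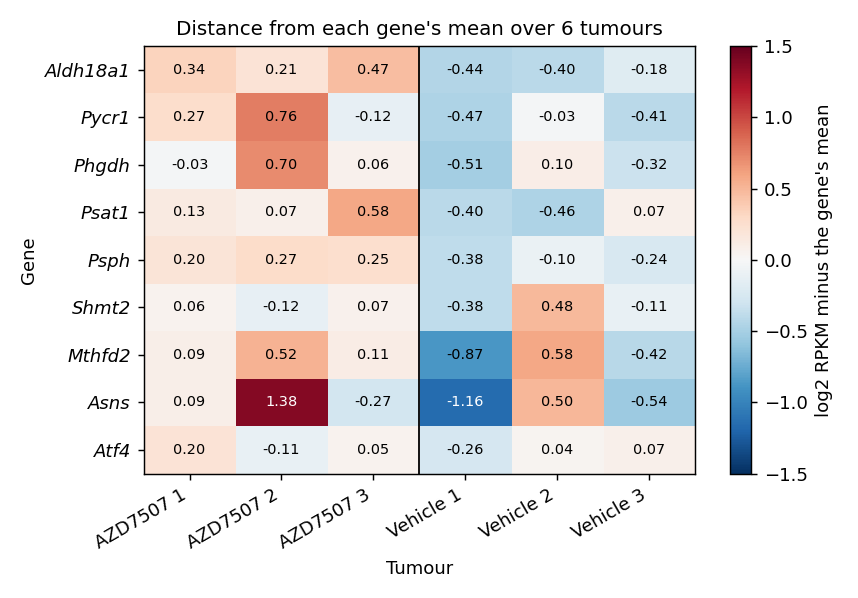
Log2 RPKM of each gene (rows) in each tumour (columns, AZD7507 left of Vehicle) minus that gene's mean over the 6 tumours; red is above and blue below the mean. AZD7507 2 and Vehicle 2 stand out for Asns (1.38 and 0.50) and Mthfd2 (0.52 and 0.58). Aldh18a1, which was chosen by its difference, is above its mean in each AZD7507 tumour and below it in each Vehicle tumour.

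With 1 acinar-rich tumour in each group, its place relative to the others can be described but not tested. For 5 of the 9 genes (Pycr1, Phgdh, Psph, Mthfd2 and Asns) it was above the mean of the others in both groups, for Psph by only 0.05 in AZD7507 tumours. For Aldh18a1 and Psat1 it was below that mean in both groups, by 0.20 and 0.28 in AZD7507 and by 0.09 and 0.30 in Vehicle tumours. Shmt2 and Atf4 went opposite ways in the groups. By the root mean squared distance between centred log2 profiles over the 6 tumours, the closest of the 36 pairs was Aldh18a1 and Psat1 (0.153), and the farthest was Psat1 and Asns (0.848). This distance is not scaled to a gene's spread, which was widest for Asns (SD 0.87 in AZD7507 and 0.84 in Vehicle tumours). Aldh18a1 was also chosen by its difference. Without both acinar-rich tumours the differences of 8 of the 8 tested genes were above 0, where 53.6% of all genes were. They were then 0.51 for Pycr1, 0.43 for Phgdh, 0.52 for Psat1, 0.53 for Psph and 0.76 for Asns. For Mthfd2, Shmt2 and Atf4 they were 0.75, 0.31 and 0.22. Over the 8 genes, the limma adjusted p ran from 0.18 for Mthfd2 to 0.48 for Atf4. How far epithelial and macrophage content bears on these differences was not tested.

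**Figure D3:**
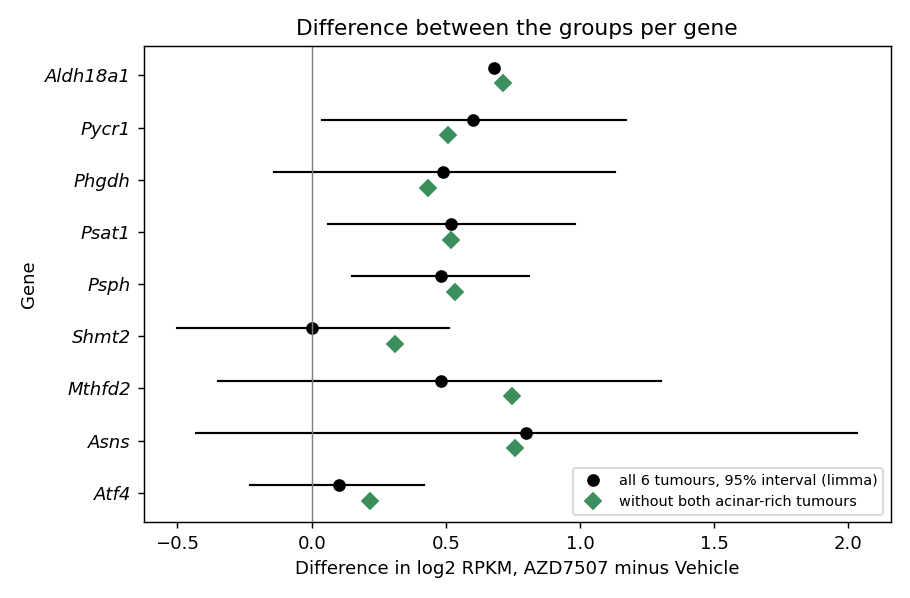
Difference in log2 RPKM, AZD7507 minus Vehicle (horizontal axis), for each gene (vertical axis): black points use 6 tumours with 95% intervals from limma (none for Aldh18a1, which was chosen by its difference), and green diamonds leave out AZD7507 2 and Vehicle 2. The intervals of Psph, Psat1 and Pycr1 lie above 0 before adjustment, and the value of Shmt2 moves to 0.31 without both tumours.

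Atf4 (ENSMUSG00000042406, chromosome 15, 80255184 to 80257541, plus strand) was the most abundant of the 9 per kilobase in each tumour. It was at 5.60, 5.29 and 5.45 in AZD7507 tumours, against 5.14, 5.44 and 5.47 in Vehicle tumours. The groups overlapped in part, with AZD7507 1 above all Vehicle tumours. Vehicle 1 was the lowest tumour, as it was for Asns, Mthfd2, Pycr1, Phgdh, Psph, Shmt2 and Aldh18a1. The difference was 0.10 (SE 0.14, 95% interval -0.23 to 0.42, limma adjusted p 0.89). Atf4 lay at percentiles 94.9 to 96.2 of all genes in AZD7507 tumours and 94.1 to 95.7 in Vehicle tumours.

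The order of the levels per kilobase was stable at its ends. Averaged over 6 tumours, it ran from Atf4 (5.40) through Aldh18a1 (3.81), Shmt2 (2.71), Psat1 (2.70), Asns (2.57), Pycr1 (2.07), Mthfd2 (1.87) and Psph (1.51) to Phgdh (0.58). Atf4 stood above Aldh18a1, Aldh18a1 above Shmt2, and Psph above Phgdh in 6 of 6 tumours, by 1.60 ± 0.34, 1.10 ± 0.48 and 0.93 ± 0.26 (SD over 6 tumours). The neighbours between these did not keep their order in 6 of 6 tumours. Shmt2 and Psat1 differed within a tumour by 0.01 ± 0.50, Psat1 and Asns by 0.13 ± 0.93, Asns and Pycr1 by 0.49 ± 0.49, Pycr1 and Mthfd2 by 0.20 ± 0.37, and Mthfd2 and Psph by 0.36 ± 0.41.

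Other genes that ATF4 acts on, or that share its stress response, gave 14 differences above 0 and 5 below among 19 measured of 21 listed, with a median of 0.20 and 0 calls. At an unadjusted p under 0.05, 0 were higher and 1 was lower, namely the histone demethylase gene Kdm7a (difference -0.47, limma adjusted p 0.29). For all genes the share above 0 was 54.5%, and 3.31% were higher and 5.49% lower before adjustment. Chac1, which encodes a glutathione-degrading enzyme, was at 1.40, 1.59 and 1.78 in AZD7507 tumours, against 0.17, 1.39 and 1.12 in Vehicle tumours. The groups were just apart, and the difference was 0.70 (95% interval -0.04 to 1.44, limma adjusted p 0.59), or 0.336 without Vehicle 1, its lowest tumour. Trib3, a pseudokinase gene, differed by 0.64 (95% interval -0.06 to 1.35), though it was -0.09 between AZD7507 2 and Vehicle 2 and 0.376 without Vehicle 1. Ddit3, the CHOP gene, differed by 0.36, Sesn2 by 0.27 and the transcription factor gene Atf5 by 0.37, none of which passed. With 1 tumour left out, Ddit3 ranged from 0.219 (without AZD7507 3) to 0.552 (without Vehicle 3), Sesn2 was as low as 0.118 (without AZD7507 3), and Atf5 as low as 0.217 (without Vehicle 1).

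Amino acid transporters were split, with 10 differences above 0 and 6 below among 16 measured of 18 listed, a median of 0.10 and 0 calls. At an unadjusted p under 0.05, 2 were higher and 2 lower. Among all genes 54.5% of differences were above 0, and at this threshold 3.31% were higher and 5.49% lower. Slc7a11, the cystine-glutamate exchanger gene, was at 2.04, 1.09 and 0.56 in AZD7507 tumours, against -0.34, 0.57 and 0.48 in Vehicle tumours. AZD7507 3 lay just below Vehicle 2, and AZD7507 1 was far above the rest, so the difference of 0.99 had a 95% interval of 0.02 to 1.97 (limma adjusted p 0.56), and was 0.588 without AZD7507 1. Slc7a5 and Slc3a2, the light and heavy chains of a large neutral amino acid carrier, each differed by 0.10. On the lower side, the transporter genes Slc43a2 and Slc7a7 differed by -0.88 and -0.50 (limma adjusted p 0.44 and 0.35), and their groups did not overlap. The difference of Slc43a2 was -0.502 without Vehicle 2, its highest tumour.

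Among the cytosolic tRNA synthetases, which charge tRNAs with amino acids, 19 of 20 had a difference above 0, where 54.5% of all genes did. Their sizes were small, from -0.04 to 0.32, with a median of 0.08 beside 0.025 over all genes. None was called, and Tars, for threonine, was the one with an unadjusted p under 0.05 (difference 0.25, limma adjusted p 0.53), followed by Yars, for tyrosine (0.23, or 0.14 without Vehicle 1). Of the enzymes of other non-essential amino acids, 8 had a difference above 0 and 5 below among 13 measured of 17 listed, with 0 calls and a median of 0.11. At an unadjusted p under 0.05, 2 were higher and 1 lower, where 3.31% of all genes were higher and 5.49% lower. The transaminase genes Gpt and Got1 were at 4.31 ± 0.18 and 3.93 ± 0.05 in AZD7507 tumours, against 3.94 ± 0.09 and 3.60 ± 0.16 in Vehicle tumours (limma adjusted p 0.43 and 0.45).

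Upstream regulators were evenly divided, with 11 differences above 0 and 10 below in 21 of 21 measured, a median of 0.03 and 0 calls. At an unadjusted p under 0.05, 1 was higher and 0 lower. That gene was Eif2ak2, which encodes the eIF2 kinase PKR, at a difference of 0.32 (limma adjusted p 0.50). Eif2ak4, of the amino acid sensor GCN2, differed by -0.24 (95% interval -0.49 to 0.00), and Eif2ak3, of the endoplasmic reticulum sensor PERK, by 0.11. Over the 7 lists together, 114 of 125 genes were measured and 79 had a difference above 0. At an unadjusted p under 0.05, 6 were higher and 4 lower, and 0 passed, with a lowest adjusted p of 0.29 from limma. Of all genes in the table, 54.5% had a difference above 0, and 3.31% were higher and 5.49% lower before adjustment.

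**Figure D4:**
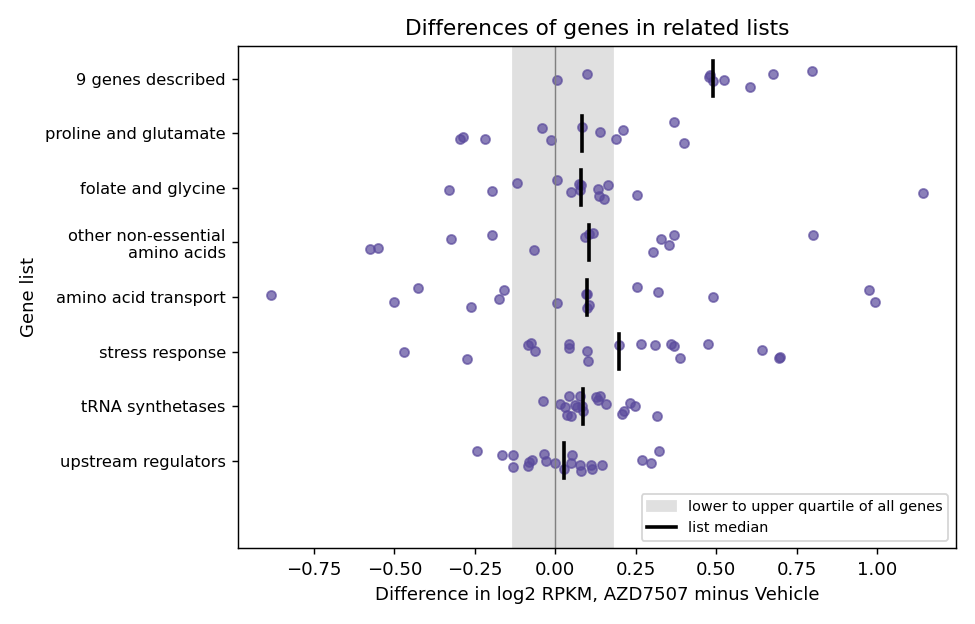
Difference in log2 RPKM, AZD7507 minus Vehicle (horizontal axis), of each measured gene in 8 lists (vertical axis); black bars are list medians and the grey band holds all genes from the lower to the upper quartile, -0.13 to 0.18. The 9 genes described have a median of 0.49, but Aldh18a1 among them was chosen by its difference; the other medians lie between 0.03 and 0.20.

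Outside the pathways, the genes whose profile over the 6 tumours was most like that of Aldh18a1 were Tmem35a (root mean squared distance 0.082), Polr2j, of an RNA polymerase II subunit (0.11), and Igf2bp2, of an RNA-binding protein (0.11). The median distance over the 11526 genes compared was 0.39. Tmem35a was at 2.80, 2.74 and 3.10 in AZD7507 tumours, against 2.21, 2.31 and 2.44 in Vehicle tumours. It was chosen for its likeness to Aldh18a1, so its difference is no separate observation. The genes nearest to Atf4 were Gtf2a1, Mrps14 and Pgrmc2, at distances of 0.040, 0.041 and 0.045, beside a median of 0.23. They too were chosen for their likeness. The distance is not scaled to a gene's spread, and Atf4 varied little (SD 0.16 in AZD7507 and 0.18 in Vehicle tumours). Other genes with even levels therefore lie near it.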

How the data were processed

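Per the labels' protocols, total RNA of 6 tumours was freed of ribosomal RNA and sequenced. The authors deposited log2 RPKM values normalized with cqn, per the file name, which adjusts for gene length and GC content. The upper quartile (3.52) and the maximum (10.16) are equal in the libraries, so these values cannot show a change in total RNA. BWA 0.7.15-r1140, HTSeq and the builds mm10 and GRCm38 are named in the submitters' processing notes. Annotation, strand setting and filters are not given in the sources used here, and the depth is unknown, so precision rests on the 3 tumours of each group.

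Groups came from the treatment label, and tumour numbers follow record order. Symbols matched 16306 of 16344 identifiers. Coordinates are from GENCODE M21 on GRCm38, which may not be the authors' release. The tests used the deposited log2 scale without pseudocount or filter, in limma 3.58.1 (R 4.3.3; trended, robust prior), 2-sided, with Benjamini-Hochberg adjustment over all genes. The fit was tested on simulated data with added differences larger than those of the members. That test does not show whether differences of the members' size would be called. The members, the lists and the alternatives were chosen with earlier results of these data known. Named genes were the 9 members, 15 fixed pathway genes, the 2 genes with the smallest p in each of 7 lists, and the 3 genes nearest in profile to Aldh18a1 and to Atf4 among genes with a mean log2 of at least 0. Markers were named for context. Some genes are not reported here, and the lists are counted without them. Alternatives were a constant prior, quantile normalization, array weights, a minimum mean log2 of 0, median centring, pseudocounts of 1 and 0.1, leaving out each tumour, leaving out both acinar-rich tumours, and the acinar score as a covariate.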

Additional observations from a re-analysis of the deposited data

How the results depend on the processing

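None of the 8 tested members and none of the 114 pathway genes passed under any of the 15 alternatives. The median difference of the 9 members was 0.49 in the main fit and ranged from 0.34 to 0.64 in the alternatives. Each shift from the main fit was smaller than the spread between tumours. That median includes Aldh18a1, which was chosen by its difference. These alternatives share the same tumours and are not separate checks. The libraries were already nearly equal in distribution, so quantile normalization and median centring could change little. The limma adjusted p of Psph was 0.324 and 0.325 with them, and 0.325 in the main fit. Psph ranged from 0.35 to 0.55. Aldh18a1, which was chosen by its difference in these same tumours, ranged from 0.61 to 0.76. Of the 9 members, Asns (0.31 to 1.25) and Mthfd2 (0.16 to 0.89) moved most. Small differences changed sign. Shmt2 was -0.001 with a pseudocount of 1, -0.011 with the acinar score as a covariate, and -0.183 to 0.247 with 1 tumour left out. Shmt1 was -0.081 with array weights and -0.204 without both acinar-rich tumours, and Eif2ak3 was -0.034 without both. With 1 tumour left out Atf4 ranged from -0.006 to 0.176, Oat from -0.074 to 0.172, Shmt1 from -0.083 to 0.199, Mthfd2l from -0.046 to 0.196, Slc7a5 from -0.178 to 0.378 and Eif2ak3 from -0.137 to 0.253. The cause was not tested. Over all genes, 3 were called higher and 55 lower; these were 1 higher with a constant prior, 14 and 143 with array weights, 1 and 13 without both acinar-rich tumours, 15 and 185 with the acinar score, and 0 higher and 0 to 14 lower with 1 tumour left out, which leaves fewer samples. No paired analysis was possible because the labels give no replicate numbers or pairing. The 3 tumours of each group limit the precision, and the unknown depth allows no counting error.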
